A study of Mus musculus with 14 samples.

Results

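The MYC, MAX and MXD network was described here through 9 genes, Myc, Max, Mxd1, Mxd3, Mxd4, Mxi1, Mnt, Mlx and Mga, taken by symbol from the 14449 genes of the deposited log2 CPM table. All 9 were in the table, and all 9 were among the 12329 genes tested, those with a log2 CPM above 0 in at least 3 of the 14 libraries. The group was chosen by measured values, the genotype difference, in which Max stood out, so their genotype differences are given as estimates with intervals and no test of them is read. The libraries held RNA of CD4+Foxp3eGFP+ T cells, regulatory T cells marked by a green fluorescent Foxp3 reporter, from BALB/c lymph nodes on postnatal day 35. Of these, 7 came from wild-type mice and 7 from Il1rn-/- mice, which lack the IL-1 receptor antagonist, and the reporter sort was common to both. A letter in the titles splits them into a set a, with 3 libraries of each genotype, and a set b, with 4 of each, and its meaning is not given in the sources used here. Whether each library came from its own animal or from a pool is not given either, so p-values measure the spread between libraries, which may be technical. Il1rn itself is not in the table analysed here, so the genotype labels could not be checked on it.

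MYC is a basic helix-loop-helix leucine zipper factor that binds DNA only as a dimer with MAX, and MYC-MAX dimers raise transcription from E-box sequences. MAX also pairs with the MXD proteins, MXI1 and MNT, which bring SIN3 and histone deacetylase corepressors to the same sites, and with MGA, a subunit of a variant Polycomb repressive complex. MLX is a MAX-like protein that pairs with MNT and some MXD proteins and, in separate dimers, with the glucose-sensing MONDO factors. In T cells MYC is known as a factor induced by antigen receptor and IL-2 signals that drives growth, nutrient uptake and ribosome production.

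The canonical E-box, CACGTG, reads the same on both strands and is the site at which these dimers meet, so it was looked for in the network's own promoters. RefSeq promoters of build GRCm38.p6, which run from 250 bases before to 50 after the start site, matched 8 of the 9 genes. The motif was in promoters of 4 of these 8 genes, Max, Mlx, Mnt and Mxd4, against 1129 of 9509 tested genes with a promoter (11.9%) and 2349 of all 32851 promoters (7.15%). It was in none of the listed promoters of Mxd1, Mxd3, Mxi1 and Mga. The stretches around the motif, 5′ to 3′ on the gene's strand with the motif in capitals, were as follows.
Max, chr12:76962221-76962301, minus strand: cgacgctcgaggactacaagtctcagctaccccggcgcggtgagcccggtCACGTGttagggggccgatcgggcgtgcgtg
Mlx, chr11:101087200-101087280, plus strand: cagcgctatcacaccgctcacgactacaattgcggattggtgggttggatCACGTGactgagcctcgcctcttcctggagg
Mnt, chr11:74830751-74830831, plus strand: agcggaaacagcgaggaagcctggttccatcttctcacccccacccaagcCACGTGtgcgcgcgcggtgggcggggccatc
Mxd4, chr5:34187899-34187960, minus strand: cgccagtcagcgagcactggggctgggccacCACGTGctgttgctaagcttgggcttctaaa
In Max the motif began 3 bases before the start site and lay across it, while it began 40 bases before the start in Mlx, 123 in Mnt and 219 in Mxd4. A match of letters is not a bound site, and no binding was measured here.

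The cells carried the transcripts of the sorted lineage. Foxp3 was at 8.15 to 9.06 log2 CPM, and all 9 genes of the regulatory T cell list were above 0 reads in every library. Their summed level was 2359 to 3907 CPM. Cd4, Cd3e, Cd3g and Trac of that list are shared with other CD4 T cells, so the sum is not specific to regulatory T cells. Summed markers of B cells reached 15.1 to 56.0 CPM, of CD8 T and NK cells 26.1 to 64.7, and of monocytes and macrophages 2.15 to 25.9, with Cd14 and Klrb1c at 0 reads in 10 libraries each. The plasma cell list reached 48.6 to 187 CPM, with its markers Sdc1 and Jchain at 0 reads in 9 and 8 libraries. Its other members Xbp1, at 4.92 to 7.30 log2 CPM, and Prdm1, at 3.67 to 5.92, had reads in every library. The stromal and endothelial list reached 64.8 to 107 CPM, with Pdgfra at 0 reads in 10 libraries and Pecam1 at 6.01 to 6.74 log2 CPM. Cd8a, Cd8b1, Prf1 and Lyz2 also had reads in every library. The dendritic list reached 0 to 4.94 CPM. The range of each of these lists in wild type overlapped that in Il1rn-/-. Depth, as reads recovered over the table, was 952021 to 3756559 per library. Of these, Rn45s, the gene of the ribosomal RNA precursor, held 59.6% to 65.8% in 6 libraries (all 4 wild-type libraries of set b, with Il1rn-/- 1-b and 2-b). Its share was 20.3% to 39.95% in the other 8, and the 2 classes are called Rn45s-rich and Rn45s-poor libraries below. The classes are defined by the Rn45s share alone and are no groups of the study. Whether they are technical in origin was not tested. Reads outside Rn45s numbered 384360 to 905988 in the Rn45s-rich and 1654868 to 2805693 in the Rn45s-poor libraries, so depth, Rn45s share and, in part, the letter and the genotype moved together. Y-linked transcripts were present in 4 of the Rn45s-poor libraries, of which 2 were wild type of set a and 2 were Il1rn-/- of set b.

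Within the network, by means over each genotype, Myc and Mlx had the highest levels per length and Mxi1 and Mnt the lowest. On the scale of log2 CPM per kilobase of the longest coding transcript, Myc had a mean ± SD of 4.65 ± 0.45 over the 7 wild-type libraries and 4.53 ± 0.55 over the 7 Il1rn-/- libraries, and Mlx 4.53 ± 0.41 and 4.56 ± 0.27. Max followed in wild type at 3.94 ± 0.89, then the MAX partner Mxd1 at 3.38 ± 0.52. Mxd3 was at 2.08 ± 0.94, Mga at 1.32 ± 0.49 and Mxd4 at 1.18 ± 0.57, ahead of Mxi1 at -0.62 ± 0.67 and Mnt at -0.98 ± 2.16. In wild type the gap to the next gene exceeded the larger SD of the pair at 2 places, between Mxd1 and Mxd3 and between Mxd4 and Mxi1. Other neighbours did not differ beyond their spread, Myc and Mlx among them, with Myc the higher of the pair in 4 of 7 wild-type libraries. The wild-type mean of Max lay between its sets, which ran from 2.81 to 3.16 in set a and from 4.58 to 4.69 in set b. In wild-type set b Max, at a mean of 4.65, was level with Mlx at 4.64. In Il1rn-/- the order began Mlx, Myc, Mxd1 and Max, and Max stood at 3.11 ± 0.74. The place of Mxi1 rests on its length, which ran from 833 to 5036 bases over 8 coding transcripts, and with its median of 1491 bases it rose to 1.14 log2 CPM per kilobase in wild type. Mga has a transcript of 13931 bases, so its reads, 18 to 282 per library, stood for a low level per length.

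**Figure D1:**
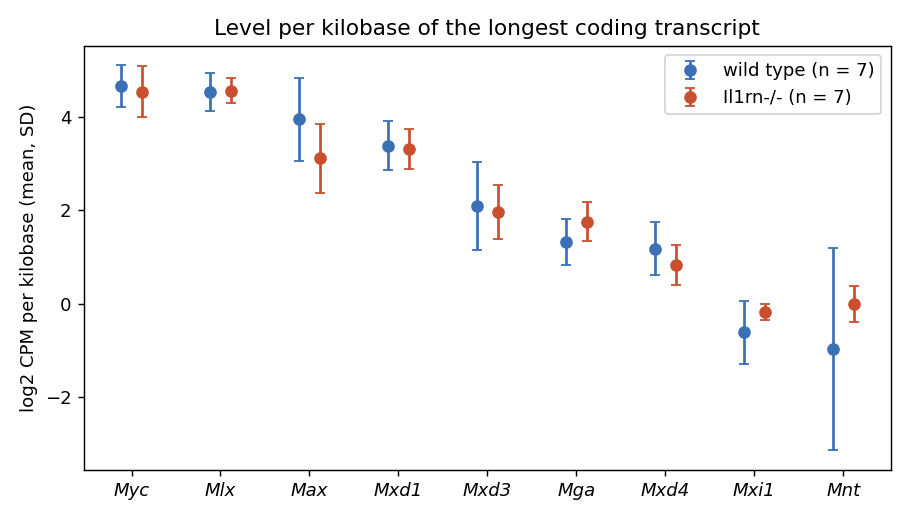
Level of the 9 genes on the scale of log2 CPM per kilobase of the longest coding transcript, as mean and SD over 7 wild-type and 7 Il1rn-/- libraries, ordered by wild type. Myc and Mlx lie above 4 in both genotypes, Mxi1 and Mnt lie at or below 0, and the long whisker of Mnt comes from 1 wild-type library with 0 reads.

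Max, the dimer partner that all the MAX-dependent members share, had the widest range among the members with 25 or more reads in every library. The wild-type libraries of set a gave 3.76, 3.99 and 4.11 log2 CPM, listed here and below in the order of the numbers in their titles, and the Il1rn-/- libraries of that set 3.79, 3.60 and 3.66. Those of set b gave 5.60, 5.63, 5.54 and 5.64 for the wild type, and 5.34, 4.75, 3.20 and 4.14 for Il1rn-/-. Wild-type set b was tight and high, set a was low in both genotypes, and Il1rn-/- set b was spread across the whole range, with its low libraries, 3-b and 4-b, being those that were Rn45s-poor. The reads behind these values were 29 to 98 per library. Its lowest Rn45s-rich library, Il1rn-/- 2-b, was at 4.75 and its highest Rn45s-poor library, Il1rn-/- 4-b, at 4.14, so the classes did not overlap.

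**Figure D2:**
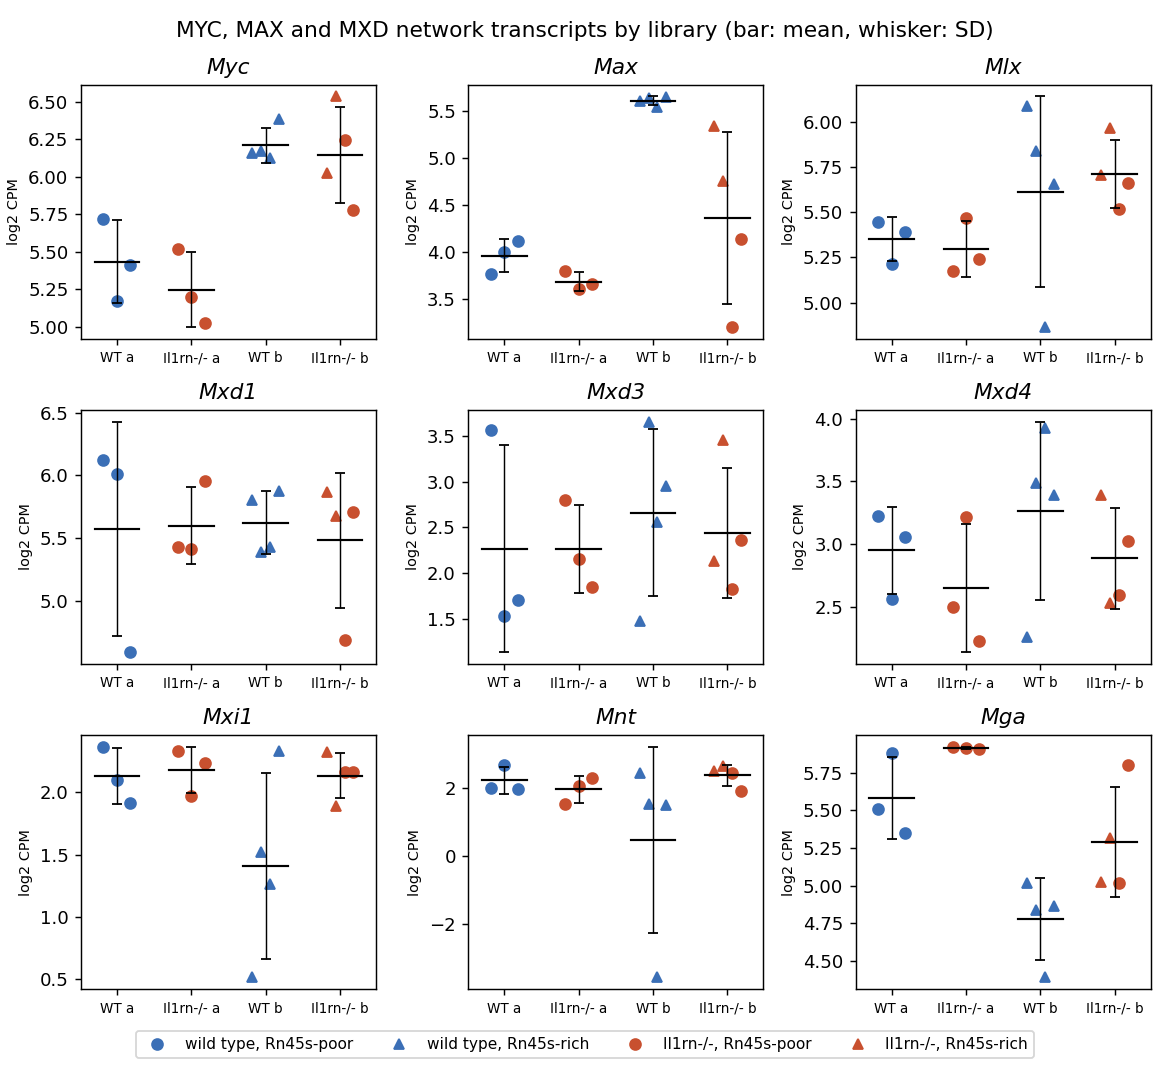
Each of the 14 libraries as a point on the log2 CPM scale for the 9 genes, by genotype (blue wild type, red Il1rn-/-), set and Rn45s class (circles Rn45s-poor, triangles Rn45s-rich), with group means and SD; the vertical scales differ between panels. For Max the triangles lie from 4.75 to 5.64 and the circles from 3.20 to 4.14.

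The study's comparison was Il1rn-/- against wild type, fitted by limma over all tested genes with the letter as a term. It called 0 of 12329 genes (0%) at an adjusted p under 0.05, with 679 at an unadjusted p under 0.05 (5.51%), and limma voom on recovered reads also called 0, with 733 unadjusted. For Max, the gene that drew attention, the difference was -0.83 ± 0.26 (log2, estimate ± SE here and below), with a 95% interval of -1.38 to -0.28. It was -0.28 ± 0.37 within set a and -1.25 ± 0.32 within set b. With the Rn45s class in place of the letter it came to -0.40 ± 0.17, within Rn45s-poor libraries alone to -0.28 ± 0.22 and within Rn45s-rich libraries alone to -0.56 ± 0.17, where the Il1rn-/- side had 2 libraries. Adding Y-linked transcripts to the class gave -0.41. Fewer cells of a type and less RNA per cell cannot be told apart in such bulk libraries, and how far the Rn45s class carries the Max difference was not tested beyond these values.

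Myc was near equal between genotypes. Its level in set a was 5.72, 5.17 and 5.41 log2 CPM for the wild type, against 5.52, 5.20 and 5.03 for Il1rn-/-. Its level in set b was 6.16, 6.17, 6.12 and 6.38 for the wild type, against 6.02, 6.53, 6.24 and 5.78 for Il1rn-/-. Every library of set b lay above every library of set a, and within each set the genotypes overlapped. The genotype difference was -0.12 ± 0.15, with an interval of -0.42 to 0.19, and it was 0.10 ± 0.17 with the Rn45s class as the term.

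Mga, the Polycomb-linked partner of MAX, ran the other way from Max. Set a gave 5.51, 5.88 and 5.35 log2 CPM for the wild type, and for Il1rn-/- 5.92, 5.91 and 5.91. Set b gave 5.02, 4.84, 4.39 and 4.87 for the wild type, and for Il1rn-/- 5.03, 5.32, 5.02 and 5.80. The genotypes did not overlap in set a, as was so for 7.97% of tested genes. In set b, where 4.28% of tested genes did not overlap, only Il1rn-/- 3-b, just below wild-type 1-b, kept them from separating. The difference was 0.44 ± 0.16, with an interval of 0.10 to 0.77, and 0.24 ± 0.17 with the Rn45s class as the term, with -0.11 as the lower end of that interval. Within sets it was 0.33 ± 0.25 in set a and 0.51 ± 0.21 in set b. Within Rn45s-poor libraries alone it came to 0.13, with means of 5.71 in Il1rn-/- and 5.58 in wild type. Within Rn45s-rich libraries the means were 5.17 in Il1rn-/- (2 libraries) and 4.78 in wild type (4 libraries).

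The repressive partners of MAX had smaller differences or too few reads. Mxd1, found in cells that leave the cycle, was at 4.60 to 6.12 log2 CPM in wild type and 4.69 to 5.95 in Il1rn-/-, a difference of -0.07 ± 0.23. Mxd3 differed by -0.13 ± 0.41 on 4 to 42 reads per library, and Mxd4 by -0.35 ± 0.29 on 7 to 47. Mxi1 differed by 0.43 ± 0.34 on 2 to 23 reads, and by 0.04 ± 0.25 among Rn45s-poor libraries alone. Among Rn45s-rich libraries its means were 2.10 log2 CPM in Il1rn-/- (2 libraries) and 1.41 in wild type (4 libraries). The 95% intervals reached from -0.99 to 0.73 for Mxd3, from -0.96 to 0.27 for Mxd4 and from -0.28 to 1.15 for Mxi1. For Mxd3 and Mxd4 they hold the estimate of Max, and for Mxi1 they do not. Mlx was at 4.86 to 6.09 log2 CPM in wild type and 5.18 to 5.97 in Il1rn-/-, a difference of 0.03 ± 0.17. Exons on the opposite strand overlap 19.4% of the exon bases of Mlx (Psmc3ip), 13.2% of those of Mxd4, 7.91% of those of Mxd3 and 2.91% of those of Mxi1. Reads there cannot be assigned with certainty, because the use of strand in counting is not given.

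Mnt, a broadly expressed MAX partner that opposes MYC, shows how 1 library can set a value. In set a the wild type gave 2.01, 2.67 and 1.98 log2 CPM, while Il1rn-/- gave 1.52, 2.06 and 2.30. In set b the wild type gave 2.45, 1.52, -3.58 and 1.50, while Il1rn-/- gave 2.49, 2.65, 2.44 and 1.92. The value of -3.58 in wild-type 3-b, the shallowest library, stands for 0 reads, a count that allows up to 3 (counting error only, since no molecular identifiers were used). The genotype difference was 0.98 ± 0.71 with that library and 0.17 ± 0.33 without it.

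**Figure D3:**
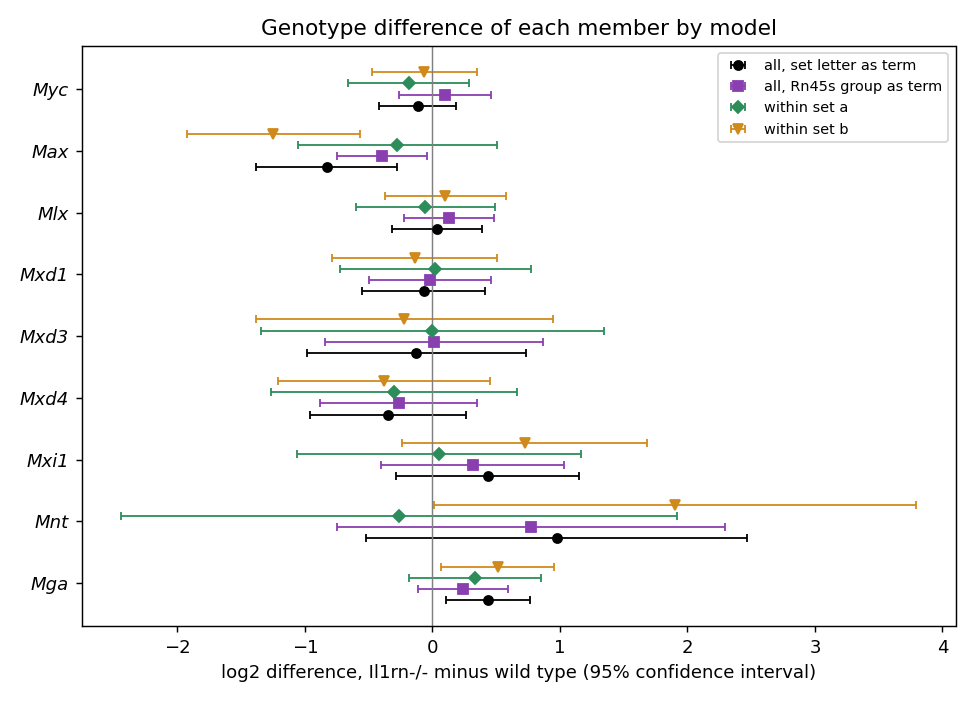
Log2 difference of Il1rn-/- minus wild type for each gene with its 95% confidence interval, from 4 models: all libraries with the letter, all libraries with the Rn45s class, set a and set b. The Max estimate moves from -0.83 with the letter to -0.40 with the Rn45s class, and the intervals of Myc, Mxd1, Mxd3, Mxd4, Mxi1 and Mlx span 0 in all 4 models.

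Counted over the network, 0 of the 9 genes separated the genotypes over all 14 libraries, where 0.0324% of tested genes did. In set a 1 of 9 did, Mga (7.97% of tested genes), and in set b 1 of 9, Max (4.28%). Among Rn45s-rich libraries, 4 wild-type and 2 Il1rn-/-, the genotypes did not overlap for 3 of 9, Max below and Mnt and Mga above in Il1rn-/- (11.5%). These counts use the contrast from which the genes were proposed and are a description. The difference between the genotype differences of set b and set a was tested by limma, which called 0 of 12329 genes (0%), with 968 at an unadjusted p under 0.05 and 0 called by limma voom. For Max that difference was -0.97 ± 0.49 (adjusted p = 0.649 by limma) and came to -0.28 with the Rn45s class added.

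The sets themselves differed in 3 of the 9 genes, Myc, Max and Mga, where 19.5% of all tested genes were called by limma at an adjusted p under 0.05. Set b was higher for Myc by 0.84 ± 0.15 (adjusted p = 0.00162 by limma) and for Max by 1.16 ± 0.27 (adjusted p = 0.00682 by limma). It was lower for Mga, by -0.71 ± 0.16 (adjusted p = 0.00599 by limma). Mlx was higher by 0.34 ± 0.17 and passed only without wild-type 3-b, at 0.46 (adjusted p = 0.0283 by limma). Of the 9 genes, only Myc had sets that did not overlap, as was so for 1.5% of tested genes. With the Rn45s class added to that model, 12 genes were called in all (0.0973%) and none of the 9. The Myc difference then stood at 0.70 ± 0.22 (adjusted p = 0.279 by limma), that of Max at 0.05 ± 0.27 (0.986) and that of Mga at -0.52 ± 0.24 (0.577). The letter and the Rn45s class are partly confounded, since all 6 Rn45s-rich libraries are of set b.

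Rn45s-rich and Rn45s-poor libraries were then compared over all genes with genotype as a term. Genotype was spread unevenly over these classes, 4 wild-type and 2 Il1rn-/- libraries against 3 and 5, so this contrast is not wholly apart from the one that proposed the genes. limma called 4447 genes (36.1%), and of the network the same 3 genes, Max, Myc and Mga, a share near that background. Max was higher in Rn45s-rich libraries by 1.52 ± 0.17 (adjusted p = 8.94e-07 by limma) and was the only member whose classes did not overlap, as they did not for 14.9% of tested genes. Myc was higher by 0.75 ± 0.18 (adjusted p = 0.00231 by limma). Mga was lower, by -0.68 ± 0.17 (adjusted p = 0.00411 by limma). Over all tested genes the median of this contrast was -0.12, so the rises of Max and Myc are against a slightly falling background. Mlx, at 0.34 ± 0.17 (adjusted p = 0.131 by limma), passed only without wild-type 3-b, at 0.47 (adjusted p = 0.0106 by limma). Mxd1, Mxd3, Mxd4, Mxi1 and Mnt did not pass, with estimates of 0.18, 0.49, 0.29, -0.42 and -0.72.

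With the letter added to the Rn45s contrast, 16.7% of tested genes were called and, of the 9, Max alone. Max then stood at 1.48 ± 0.28 (adjusted p = 0.000987 by limma), while Myc fell back to 0.18 ± 0.23 (adjusted p = 0.667 by limma) and Mga to -0.26 ± 0.25 (adjusted p = 0.553 by limma). Within set b alone, where genotype is a term, the Max difference was 1.38 ± 0.32 (adjusted p = 0.0214 by limma). All wild-type libraries of set b are Rn45s-rich, so they add to the spread of that fit and not to its estimate. The estimate comes from the Il1rn-/- libraries of set b, 2 of each class, with 5.34 and 4.75 against 3.20 and 4.14 log2 CPM. Fitted inside those libraries it was therefore the same 1.38, which is no second result. It did not pass there (adjusted p = 0.147 by limma, 3.18% of genes called). In set b the Rn45s-poor libraries, Il1rn-/- 3-b and 4-b, were also the only ones with Y-linked transcripts, so there the class and those transcripts cannot be told apart. Depth differs between the classes along with the Rn45s share, and the mitochondrial ribosomal RNA genes took 2.97% to 4.12% of reads outside Rn45s in one class and 8.82% to 16.6% in the other. The part of each in the Max result was not tested.

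**Figure D4:**
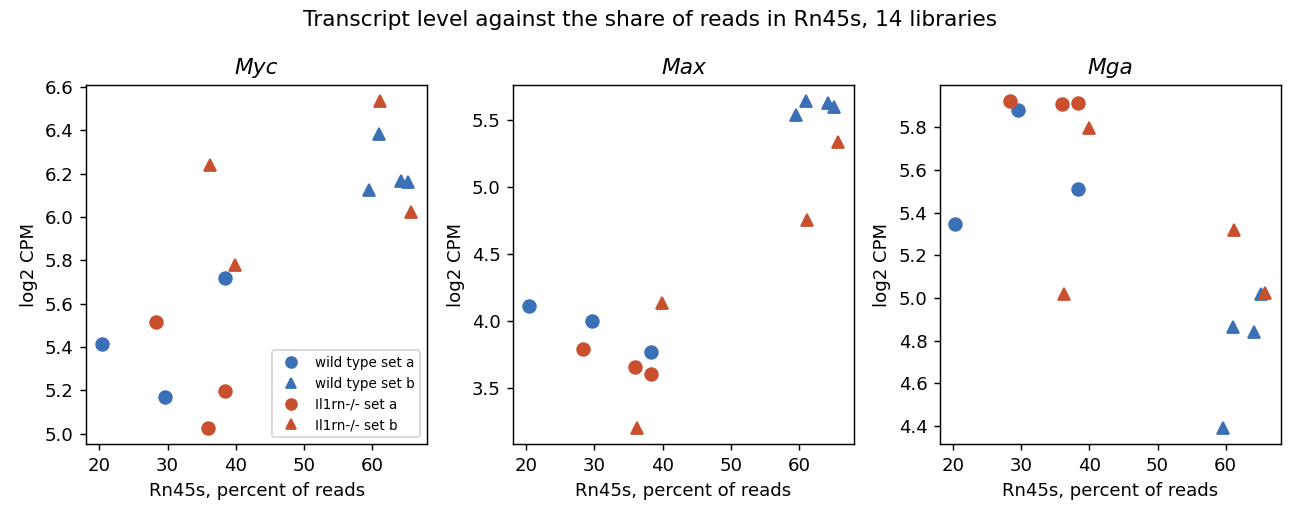
Log2 CPM of Myc, Max and Mga in the 14 libraries against the percent of reads in Rn45s, by genotype (colour) and set (circles a, triangles b). Max is higher in every Rn45s-rich than in any Rn45s-poor library, 3 of the 6 Rn45s-rich libraries lie below all Rn45s-poor ones for Mga, and for Myc the 2 Rn45s-poor libraries of set b, at 36.2% and 39.95%, lie at 6.24 and 5.78, above all of set a.

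Ratios between the transcripts of partners also differed in their means between the Rn45s classes, and no protein or dimer was measured. The log2 ratio of Myc to Max within a library, a difference of log2 CPM without correction for length, was 1.18 to 3.04 in Rn45s-poor and 0.54 to 1.78 in Rn45s-rich libraries, with means of 1.73 and 0.81. The ratio of Mga to Max was 1.23 to 2.31 in the Rn45s-poor and -1.15 to 0.56 in the Rn45s-rich libraries, with no overlap. Max alone already separated these classes and Mga ran the other way, so that ratio is no separate result. By genotype, Myc to Max averaged 0.98 ± 0.53 (SD, n = 7) for the wild type against 1.69 ± 0.70 (SD, n = 7) for Il1rn-/-, and the ranges overlapped. The widest Myc to Max ratio, 3.04, was in Il1rn-/- 3-b, which had the lowest Max.

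Likeness of pattern was measured as the variance of the log2 ratio to a member over the 14 libraries, divided by the variance of that member, among 5222 other genes with a mean log2 CPM of at least 4. Closest to Myc were Ecm1, an extracellular matrix protein, at 0.131 and Eif2s1, the alpha subunit of the initiation factor eIF2, at 0.132. Closest to Max were Szrd1 at 0.132, Fdps, the farnesyl diphosphate synthase of the sterol pathway, at 0.142 and Lrrc8a, a subunit of the volume-regulated anion channel, at 0.143. Of the other members, Mlx was the nearest to Myc at 0.723, with 727 genes closer, and Myc was the nearest to Max at 0.615, with 682 closer. Pseudogenes share 20.9% of the 32-base stretches of Fdps and 10.2% of those of Eif2s1. Other genes share 67.5% of those of Lrrc8a, Gm28035 alone 65.6%. The libraries share depth and Rn45s class, so these values describe the 14 libraries and no p is given.

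Genes that work with the network were followed in 9 lists, and in none of them was a gene called between genotypes. Against the Rn45s class, the 13 other genes of the complex that contains MGA gave 6 higher and 0 lower, with a median of 0.81 beside -0.12 for all genes, while Mga itself was lower. Over all tested genes 16.1% were higher and 20% lower, and the counts of every list here are a description to be read against those shares. Cbx3, the heterochromatin protein of that complex, was at 7.80 ± 0.14 log2 CPM in Rn45s-rich (SD, n = 6) and 2.99 ± 0.30 in Rn45s-poor libraries (SD, n = 8), a difference of 4.81 ± 0.16 (adjusted p = 3.55e-14 by limma). Rybp, which joins RING1 complexes, was higher by 2.98 ± 0.46 (adjusted p = 3.9e-05 by limma). Hdac1, a histone deacetylase of both this complex and SIN3, was higher by 2.26 ± 0.16 (adjusted p = 2.28e-09 by limma). With the Rn45s class as the term, the genotype difference was -0.01 in Cbx3, 0.01 in Hdac1 and -0.04 in Rybp. Share of 32-base stretches of the transcript found in pseudogenes was 38.4% for Hdac1, 10.6% for Rybp and 8.0% for Cbx3, so their counts are uncertain, as the handling of reads shared between genes is not given.

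Among genes that MYC is known to activate, 25 of 62 were higher and 6 lower in Rn45s-rich libraries (16.1% and 20% of all tested genes), with a median of 0.18. Fbl, the methyltransferase of ribosomal RNA processing, was higher by 3.70 ± 0.22 (adjusted p = 1.28e-10 by limma), and Eif4e, the cap-binding translation factor, by 1.63 ± 0.14 (adjusted p = 3.2e-08 by limma). The RNA helicase Ddx18 had a genotype difference of -0.67 ± 0.23 and Bysl, a ribosome assembly factor, one of -0.57 ± 0.20. Neither passed (adjusted p = 0.787 by limma for each), and they came to -0.25 and -0.54 with the Rn45s class as the term. An E-box was in the promoter of 17 of the 56 genes of this list with a listed promoter (30.4%), against 11.9% of tested genes. Pseudogenes share 64.9% of the 32-base stretches of Ddx18 and 20.4% of those of Fbl.

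Coactivators of MYC gave 5 of 18 higher and 2 lower, where 16.1% and 20% of all tested genes were called. Ruvbl1, a helicase of chromatin complexes, was higher by 1.75 ± 0.17 (adjusted p = 9.48e-08 by limma), with 56.5% of its stretches in pseudogenes. Kat2b, an acetyltransferase with 14.04% of them there, was lower by -1.10 ± 0.19 (adjusted p = 0.00018 by limma). The SIN3 and histone deacetylase corepressors gave 4 of 18 higher and 3 lower, close to those shares, with Sap18 at 1.31 ± 0.18 and Arid4b at -1.22 ± 0.15 among them (adjusted p = 1.06e-05 and 2.67e-06 by limma). Of regulators of MYC protein stability, 5 of 26 were higher and 6 lower. Set, an inhibitor of the phosphatase PP2A, was higher by 3.06 ± 0.14 and the kinase Gsk3b, which marks MYC for degradation, by 0.87 ± 0.15 (adjusted p = 2.86e-12 and 0.000156 by limma). Pseudogenes share 31.0% of the stretches of Set, and other genes, pseudogenes included, share 17.65% of those of Sap18. The serine kinase Pim2 was -0.54 ± 0.20 between genotypes and did not pass.

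Genes of MYC-dependent T cell metabolism gave 7 of 24 higher and 7 lower (16.1% and 20% of all tested genes), with the glycolytic enzyme Tpi1 at 1.28 ± 0.17 and the spermidine synthase Srm at 1.62 ± 0.26 (adjusted p = 8.03e-06 and 6.14e-05 by limma). Genes that MYC is known to repress gave 5 of 18 higher and 4 lower. Foxo3, a forkhead factor of quiescent cells, was higher by 2.64 ± 0.29 and the cell cycle inhibitor Cdkn1b lower by -1.12 ± 0.14 (adjusted p = 6.04e-07 and 5.34e-06 by limma). Targets of MONDO and MLX gave 4 of 10 higher and 0 lower, with Fasn, the fatty acid synthase, at 0.47 ± 0.14 (adjusted p = 0.0131 by limma). Other factors of the extended network gave 2 of 11 higher and 2 lower, near the shares over all tested genes. Srebf2, the regulator of sterol synthesis, was at 0.50 ± 0.13 and Tfe3, a lysosomal gene regulator, at -1.16 ± 0.23 (adjusted p = 0.00583 and 0.000468 by limma). Genes in these lists overlap, Cbx3 and Hdac1 among others being in 2 lists each. Pseudogenes share 9.49% of the 32-base stretches of Tpi1 and 8.65% of those of Srm.

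**Figure D5:**
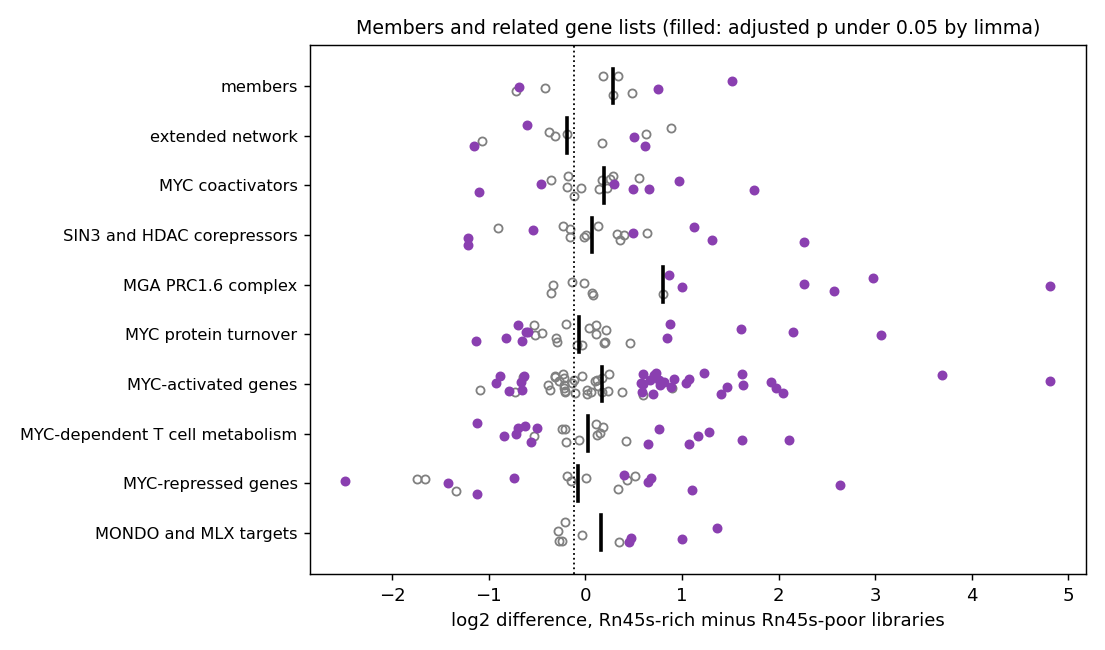
Log2 difference of Rn45s-rich minus Rn45s-poor libraries for each gene of the network and of 9 related lists, filled where the adjusted p by limma was under 0.05, with list medians as bars and the median of all tested genes, -0.12, as a dotted line. The list of the complex with MGA, without Mga itself, has 6 filled points, all to the right, and the median of the MYC-repressed genes, -0.07, lies close to the dotted line.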

How the data were processed

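Transcripts of 14 libraries, made with Smart-Seq2 from sorted cells per the labels' protocols, were counted by the submitters. The labels' protocols name Cuffquant, and per the submitters' processing notes BWA, TopHat2 2.0.10, Cufflinks 2.2.1 and Cuffnorm were used. Which build, annotation, strand setting and tool lie behind the table was not given in the sources used here. The authors deposited log2 CPM, read counts scaled to a common library size with a small prior, and its lowest value, -3.58, marks 0 reads in all 14. Whole reads were recovered from the steps above it (100% of values at a tolerance of 0.001) and served for depth and limma voom.

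Members and gene lists were chosen with earlier results of these data known. The named genes were the 9 members and, per list, up to 3 with the smallest p in the genotype contrast and up to 3 in the Rn45s contrast, of which a part is printed, and the 3 genes most like Myc and Max, of which 1 is not reported here. Tests were limma with an intensity trend (version 3.58.1, under R 4.3.3) on the log2 values, two-sided, with Benjamini-Hochberg adjustment over 12329 genes at 0.05. The Rn45s-rich class had over 50% of reads in Rn45s. Lengths, overlaps and shared 32-base stretches came from GENCODE M21 and promoters from RefSeq. Python 3.11.15, numpy 2.4.6 and matplotlib 3.10.9 were used, and the fits were tested on simulated data. Alternatives covered filter, prior, scaling, variance model, covariates, a block by number and each library left out. Those by Rn45s class alone, the class with another scaling and the letter in the Rn45s contrast were added after seeing the data.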

Additional observations from a re-analysis of the deposited data

Results flagged for a closer look

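Over 36 pairs of a member and a group of 4 or 7 libraries, 5 had a library set apart from the others by Dixon's criterion, and chance flags about 1 pair in 20. Mnt in wild-type 3-b, at -3.58 log2 CPM or 0 reads, lay far below the others both in wild type and in wild-type set b. Mxd1 in Il1rn-/- 3-b was at 4.69 log2 CPM, on 82 reads, below the other Il1rn-/- libraries both over all 7 and in set b. Myc in wild-type 4-b was at 6.38 log2 CPM, above 3 libraries of its group that lay between 6.12 and 6.17. Without Il1rn-/- 3-b the genotype difference of Mxd1 was 0.08 in place of -0.07.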

How the results depend on the processing

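Of the values of the 9 genes under alternatives, 816 kept their call or, where no call is read, stayed within their spread. A further 10 lost a call, 2 gained one and 1 moved, the set by genotype difference of Max, which came to -0.28 with the Rn45s class added. That spread is wide, for Max an SD of 0.89 in wild type and 0.74 in Il1rn-/- beside a genotype difference of -0.83. The count of values kept is therefore no measure of stability. The genotype difference called 0 genes in 25 of 27 alternatives, each left-out library included (0 to 0). It called 2 genes in Rn45s-poor libraries alone (Cacnb3 and Loxl2, named after their values were seen) and 13 in Rn45s-rich libraries alone. Among these 13, Cep295nl, Hspa1b, Mfap1b, Masp2, Baiap2l1 and Zmynd10 had one and the same difference, 2.96 ± 0.16. A gene without a symbol shared that value, and Trdv2-2 and Mir568 shared another, 3.40 ± 0.24. Equal values in different genes point to equal counts close to 0 reads, so these calls are not read as genotype differences. Whether the other calls rest on such counts was not tested. The sign of the genotype difference held in all 27 alternatives for Max (-0.97 to -0.28), Mga (0.13 to 0.50) and Mxd4, and not for Myc, Mxd1, Mxd3 or Mlx. Mnt had a negative value, -0.17, in Rn45s-poor libraries alone. The set difference called 2408 genes, 1355 to 3376 with each library left out (1570 without wild-type 1-a, 1355 without wild-type 2-a), and 12 with the Rn45s class added. The Rn45s difference called 4447 genes, 3857 to 4705 with each library left out, 1263 in set b only, 392 in the Il1rn-/- libraries of set b only and 2059 with the letter added; in the first 2 of these fewer libraries enter. With set b only the Rn45s difference of Myc was 0.27 and of Mga -0.23, and neither passed. The set by genotype difference called 0 genes in every alternative run. Same-numbered libraries did not deviate together (r across genes of -0.15 to 0.0005). That cannot exclude a pairing by number, since the deviations of the Il1rn-/- libraries of set b also carry both Rn45s classes. A replicate block gave 0 genes for the genotype and 0 for the set by genotype difference, with Max at -0.83. Low reads limit Mxd3, Mxd4, Mxi1 and Mnt.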
